A study of Mus musculus with 15 samples.

Results

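The genes of the proteasome, its regulatory caps and its assembly chaperones were followed across 15 mouse livers in 3 groups of 5. Members were taken by symbol alone: every gene of the deposited table whose symbol begins with Psma, Psmb, Psmc, Psmd, Psme, Psmf or Psmg and a digit. Of 50 such symbols, the 3 inducible catalytic subunits Psmb8, Psmb9 and Psmb10 were left out, which gave 47 members among 17527 genes, and none was chosen by its values. No pseudogene symbol ending in -ps was among the 50. The members comprised 8 alpha and 7 beta subunits of the 20S core, 6 ATPases and 11 non-ATPase subunits of the 19S particle, 6 cap or inhibitor genes, 7 assembly chaperones and 2 genes named only for a protein partner (Psmc3ip and Psme3ip1). The symbols do not take in Sem1 and Adrm1, whose products are also 19S subunits, so 19S counts, sums and ratios below leave them out.

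The proteasome is the protease that degrades proteins tagged with ubiquitin. Its barrel-shaped 20S core holds the proteolytic sites inside, between outer rings of alpha subunits, while the 19S particle binds ubiquitin chains, removes them and threads the substrate into the barrel with a ring of ATPases. Alternative caps, an inhibitor and dedicated chaperones adjust and assemble these pieces, and in the liver, an organ of high protein turnover, the genes are known to be switched on together by the transcription factor Nrf1, encoded by Nfe2l1.

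The control mice are labelled only as control, and their diet is not given in the sources used here. Mice of the model group received a steatohepatitis diet for 20 weeks, with 60% of its energy from fat, 20% from protein and 20% from carbohydrate and with 0.2% cholesterol, and drank water with 42 g/L of sugar that was 55% sucrose and 45% fructose. Mice of the third group, labelled BBBPH, ate and drank the same and from week 12 were also given biotransformed bear bile powder by mouth at 150 mg/kg daily, while the model mice were given saline. Strain, sex and age are not stated in the labels, and nothing in them says how the replicates arose, so p-values measure the spread between these libraries. In each sequence of 5 values, the control libraries come in the order 1_1, 1_5, 2_1, 2_2 and 3_4, the model libraries in the order 1_1, 1_4, 2_1, 2_3 and 3_4, and the BBBPH libraries in the order 2_1, 2_2, 3_1, 3_2 and 3_4.

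Values are the authors' FPKM (fragments per kilobase of transcript, scaled to the library's total). The totals behind that scaling were inferred, with exon lengths of GENCODE M21, as between 35.4 and 39.6 in units of 1e+06 fragments per library. A single library held between 88 fragments (Psmg4) and 6688 fragments (Psmd2) of each tested member. Hepatocyte markers, led by Alb, summed to 65406 to 73194 FPKM in control, 35977 to 61832 in the model and 60929.6 to 69841 in BBBPH livers, the lowest being model 1_4. That library also had 255 FPKM of cholangiocyte markers, against 21.9 to 33.7 in the other 14 libraries. BBBPH 2_2 had 3854 FPKM of pancreatic acinar markers against 27.0 or less elsewhere, and control 2_1 had 407 FPKM of skeletal muscle markers against 1.83 or less elsewhere. Stellate cell markers rose in 7 of 8 genes in the model (87.5%, against 29.9% of all genes tested). They summed to 159 to 199 FPKM there, against 121 to 149 in control and 142 to 161 in BBBPH livers. Adipocyte markers summed to 0.745 to 7.95, 6.75 to 50 and 0.548 to 1.94 FPKM in control, model and BBBPH livers. Only 1 of the 6 listed adipocyte markers, Cfd, averaged 1 FPKM or more over the 15 libraries. Endothelial markers summed to 144 to 166, 130.2 to 181 and 170.0 to 181 FPKM in the same order of groups. The part of these cell types in the results on proteasome genes was not tested. In whole tissue, fewer cells of a type and less RNA per cell cannot be told apart.

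Proteasome subunits were among the well expressed genes of the control liver. Mean levels of the 31 subunits of the 20S core and the 19S particle lay within a 5.69-fold range, from 21.2 ± 1.46 FPKM (SD, n = 5) for Psmd14 to 120.4 ± 10.6 FPKM for Psmb1. The beta subunits were the most abundant class (median 93.2 FPKM over 7 genes), ahead of the alpha subunits (57.1), the ATPases (40.6) and the non-ATPase subunits (35.6). Caps and inhibitor had a median of 17.6 FPKM and the assembly chaperones one of 9.03 FPKM. Psmb1, Psmb7 (119 FPKM) and Psmb4 (114 FPKM) led the order, followed by Psma6 (95.8) and Psmb6 (93.2), while Psma5 (27.6), Psmd11 (22.2) and Psmd14 closed it. Most neighbours in this order could not be separated, as 27 of the 30 adjacent pairs overlapped between libraries. The 3 steps without overlap lay between Psma1 and Psmc4 (52.6 and 44.1 FPKM), between Psmd3 and Psmd1 (32.6 and 28.2) and between Psma5 and Psmd11.

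**Figure D1:**
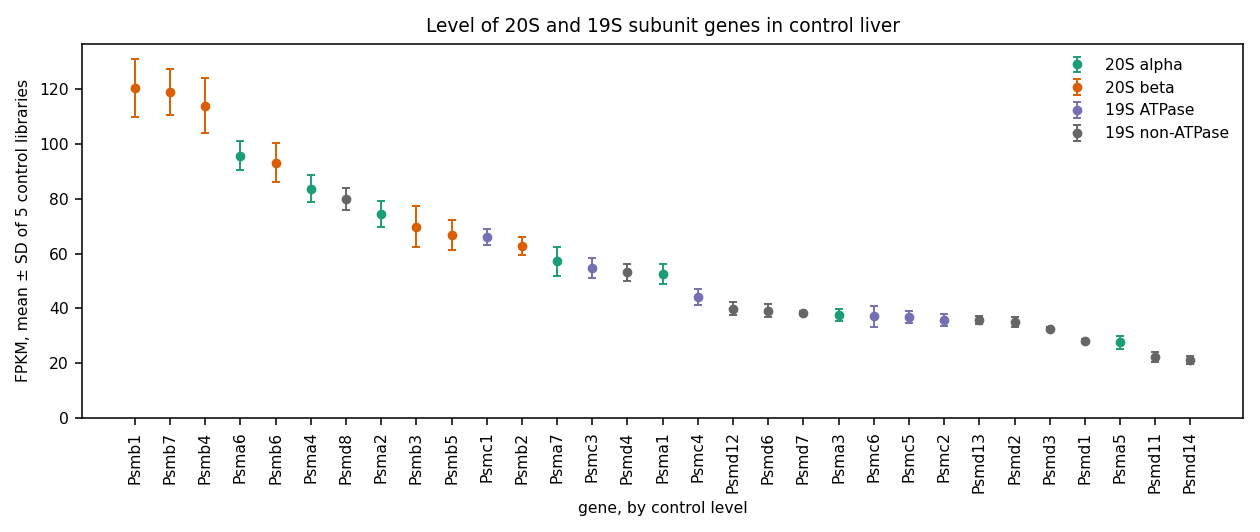
Level in FPKM of the 31 subunits of the 20S core and the 19S particle in control livers, in the order of their mean and coloured by class. Points are means and whiskers the SD of 5 control libraries, from 120.4 FPKM for Psmb1 on the left to 21.2 FPKM for Psmd14 on the right.

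Some members had almost no signal or an uncertain one. Psma8, the alpha subunit known from testis, averaged 0.443 ± 0.237 FPKM in control, 0.417 ± 0.223 in the model and 0.285 ± 0.104 in BBBPH livers, and Psmc3ip, a meiotic recombination factor, averaged 0.0944, 0.162 and 0.0809 FPKM. Both lay under the mean of 1 FPKM required for testing, which left 45 members. Psme2 and Psme2b are near-identical copies between which reads can be divided arbitrarily, so their values are uncertain. Exons of Psma4, Psmb7, Psmc3, Psmd1, Psmd13 and Psme1 overlap those of another gene on the opposite strand in GENCODE M21, and Psme2b shares exon sequence with a gene on its own strand. Among genes outside the members that are reported below, exons of Psmb9, Sqstm1, Mafk and Ube2l3 also overlap those of a gene on the opposite strand. Whether reads were counted by strand is not given in the sources used here.

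Promoter sequence was examined because proteasome genes are known as targets of Nrf1 through antioxidant response elements. RefSeq windows (GRCm38.p6) from 250 bases before to 50 bases after the start were found for 39 of the 47 members. The element's core, TGANNNNGC, was searched on both strands and occurred in 22 of the 39 members (56.4%), against 47.6% of 7760 tested genes with a window. The narrower form TGAGNNNGC occurred in 13 members (33.3%, against 22.6%) and TGACNNNGC in 6 (15.4%, against 17.2%), both being special cases of the first. Among members called higher in the model the core occurred in 16 of 29 (55.2%), and among the others tested in 5 of 9 (55.6%). Upstream sequence is shown for the member with the largest rise in the model (Psmd14), for the chymotrypsin-like catalytic subunit (Psmb5) and for the member that fell (Psmd9). Capitals mark a match to the core, 47 bases before the start in Psmb5 and 31 bases before it in Psmd9, and none was present in Psmd14. The windows are chr2:61711454-61711693 on the plus strand for Psmd14, chr14:54618023-54618245 on the minus strand for Psmb5 and chr5:123227950-123228189 on the plus strand for Psmd9, each read 5′ to 3′ in the direction of transcription.
Psmd14: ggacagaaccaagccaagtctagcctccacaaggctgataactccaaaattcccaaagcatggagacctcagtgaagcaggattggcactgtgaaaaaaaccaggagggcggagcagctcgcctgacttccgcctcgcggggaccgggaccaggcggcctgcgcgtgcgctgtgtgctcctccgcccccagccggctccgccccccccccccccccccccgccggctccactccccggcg
Psmb5: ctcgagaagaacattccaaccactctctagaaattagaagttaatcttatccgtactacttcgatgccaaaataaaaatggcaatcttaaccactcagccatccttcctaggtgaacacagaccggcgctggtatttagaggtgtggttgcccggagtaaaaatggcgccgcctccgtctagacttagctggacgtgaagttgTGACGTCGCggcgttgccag
Psmd9: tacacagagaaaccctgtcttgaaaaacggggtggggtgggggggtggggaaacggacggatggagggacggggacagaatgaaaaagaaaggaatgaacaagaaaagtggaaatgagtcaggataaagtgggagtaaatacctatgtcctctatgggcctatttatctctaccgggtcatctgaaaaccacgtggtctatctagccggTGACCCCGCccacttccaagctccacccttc

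The first comparison, model against control, asks what the diet did to these genes. Proteasome genes rose broadly in the model: 33 of the 45 tested members were called higher at an adjusted p under 0.05, against 29.9% of all 9575 genes tested. A single member, Psmd9, was called lower (8.64% of all genes), and 11 did not pass. Every model library exceeded every control library for 27 members (18.8% of all genes), and every model library lay below every control library for 0 (5.07%). The median log2 fold change of the members was 0.29, beside 0.12 over all genes tested.

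All 17 member subunits of the 19S particle rose (median log2 fold change 0.49), as did 12 of 14 tested subunits of the 20S core (median 0.27). Sem1, a 19S subunit outside the members, was not called (log2 0.02, adjusted p = 0.906 in limma). Caps and the inhibitor, with 1 of 6 higher, had a median of 0.09, and the chaperones, with 2 of 7 higher and 1 lower, a median of 0.20. In sums over genes, the 19S particle stood at 699.8 ± 12.2 FPKM (range 684 to 716) in control and at 970.2 ± 23.5 FPKM (932 to 993) in model livers. The 20S core stood at 1075 ± 67.1 FPKM (991 to 1164) and 1297 ± 62.5 FPKM (1202 to 1365). Within each library, where scaling a library by a constant factor has no effect, the ratio of the 19S sum to the 20S sum was 0.658, 0.615, 0.654, 0.631 and 0.702 in control and 0.762, 0.775, 0.741, 0.746 and 0.721 in the model. The model ratios all lay above the control ratios.

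**Figure D2:**
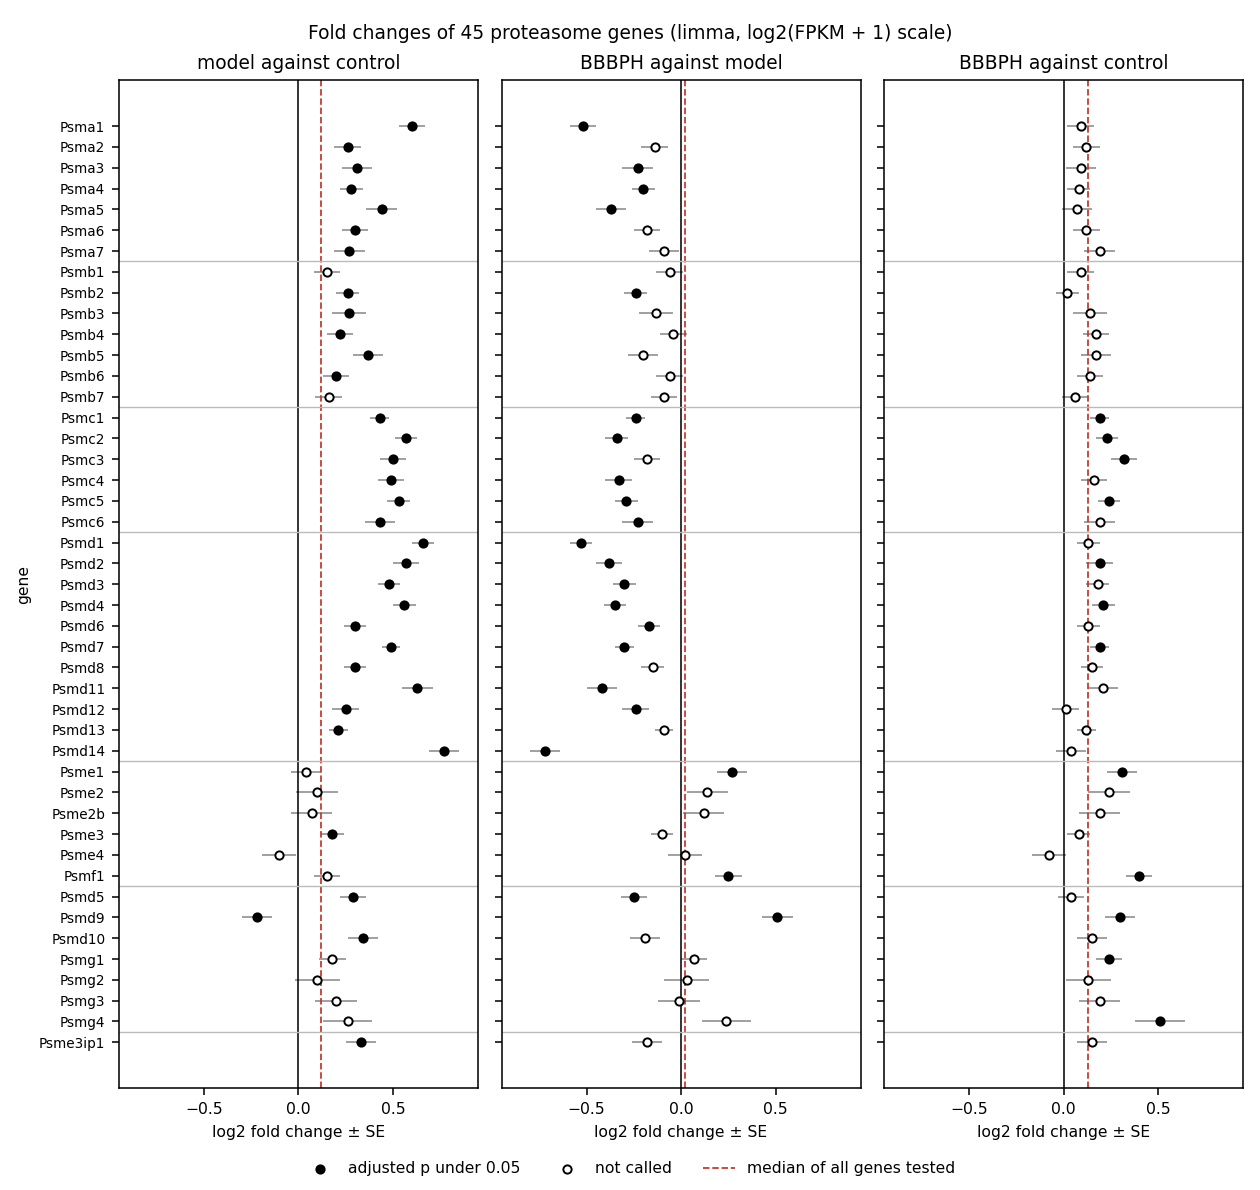
Log2 fold changes of the 45 tested members on the log2(FPKM + 1) scale, with standard errors, in the 3 comparisons. Filled points passed an adjusted p under 0.05 in limma and dashed lines mark the median of all genes tested, 0.12, 0.02 and 0.13. The 19S subunits Psmc1 to Psmd14 lie right of the dashed line in the first panel and left of it in the second.

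Among non-ATPase subunits of the 19S particle, all 11 rose, with log2 fold changes from 0.21 (Psmd13) to 0.77 (Psmd14). Psmd14, the deubiquitinase that strips ubiquitin chains from substrates, stood at 21.3, 23.6, 20.6, 20.6 and 19.7 FPKM in control, at 37.4, 34.3, 36.5, 38.0 and 37.4 FPKM in the model and at 20.4, 18.5, 21.6, 24.6 and 24.6 FPKM in BBBPH livers. All model libraries were above all libraries of both other groups, and those groups overlapped with each other. Its level was 1.70-fold higher in the model than in control (log2 0.77 ± 0.08 SE, adjusted p = 7.28e-06). Psmd1, the larger scaffold of the particle's base, had 28.3, 28.2, 28.5, 27.2 and 28.9 FPKM in control, 45.8, 43.8, 45.8, 47.0 and 42.7 in the model and 30.5, 27.2, 31.4, 32.1 and 34.0 in BBBPH livers. Control libraries were close to each other, and the model libraries stood clear of both groups. The rise was 1.58-fold (log2 0.66 ± 0.06, adjusted p = 3.67e-06).

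Psmd2, the second scaffold, whose surface docks ubiquitin shuttles, had 37.1, 36.1, 35.2, 33.5 and 32.9 FPKM in control, 51.0, 52.3, 53.0, 55.1 and 50.8 in the model and 38.4, 35.9, 38.8, 46.0 and 41.6 in BBBPH livers. Psmd4, a ubiquitin receptor of the particle, had 52.0, 49.8, 51.5, 55.0 and 57.4 FPKM in control, 84.0, 77.3, 75.0, 76.9 and 79.4 in the model and 65.9, 53.7, 64.0, 61.7 and 62.3 in BBBPH livers. Psmd7, the structural partner of the deubiquitinase, had 38.2, 39.0, 37.6, 39.1 and 37.4 FPKM in control, 55.9, 55.6, 51.9, 51.6 and 56.2 in the model and 41.5, 41.1, 47.1, 45.4 and 43.7 in BBBPH livers. For these 3 genes too, no model library came down to the level of any control or BBBPH library. Against control they were 1.49-fold, 1.47-fold and 1.41-fold higher in the model, with adjusted p of 2.03e-05, 2.25e-05 and 1.55e-05. Psmd11, a scaffold subunit of the lid, rose 1.55-fold from 22.2 ± 1.94 to 35.0 ± 2.30 FPKM, and Psmd3 1.39-fold from 32.6 ± 0.716 to 46.0 ± 2.64. The other 4, Psmd6, Psmd8, Psmd12 and Psmd13, rose 1.16-fold to 1.23-fold, and Psmd12 was the single gene of the class whose model and control libraries overlapped.

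The 6 ATPases that unfold substrates rose by similar amounts, with log2 fold changes from 0.43 (Psmc6) to 0.57 (Psmc2), and model and control libraries did not overlap for any of them. Psmc2 had 37.0, 38.4, 35.3, 32.7 and 35.2 FPKM in control, 52.9, 49.7, 53.8, 52.6 and 57.5 in the model and 42.0, 38.4, 40.7, 43.3 and 45.7 in BBBPH livers. The groups formed 3 steps, with BBBPH libraries from the top of the control range upward and model libraries above all. Psmc5 had 36.1, 36.5, 33.9, 37.1 and 40.3 FPKM in control, 51.2, 51.3, 54.6, 54.5 and 55.4 in the model and 41.8, 42.5, 42.5, 47.2 and 43.9 in BBBPH livers. It showed the same 3 steps without overlap, and was 1.44-fold higher in the model than in control (log2 0.53 ± 0.06, adjusted p = 1.41e-05). Psmc1 (1.35-fold), Psmc3 (1.41-fold), Psmc4 (1.41-fold) and Psmc6 (1.34-fold) rose as well.

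Alpha subunits, whose ring gates the entry to the core, rose in 7 of 7 tested genes, from 0.26 (Psma2) to 0.60 (Psma1) in log2 fold change. Psma1 had 51.3, 57.4, 55.0, 51.4 and 48.1 FPKM in control, 74.1, 73.4, 79.8, 84.1 and 91.8 in the model and 50.8, 57.1, 55.0, 59.7 and 56.9 in BBBPH livers. Control and BBBPH libraries were mixed, and all model libraries lay above them. Psma1 rose 1.52-fold (adjusted p = 3.14e-05), and the other 6 rose 1.20-fold to 1.36-fold. Psma5 had 26.1, 31.8, 26.9, 26.4 and 26.5 FPKM in control, 39.7, 32.8, 35.5, 38.8 and 42.8 in the model and 27.7, 26.2, 29.4, 31.8 and 30.1 in BBBPH livers. Control 1_5 stood above the rest of its group and came close to the lowest model library, 1_4, without overlap. Psma5 rose 1.36-fold (log2 0.44 ± 0.08, adjusted p = 0.000637).

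Beta subunits, which hold the proteolytic sites, had the lowest median of the 20S and 19S classes (0.22): 5 of 7 rose, from 0.20 (Psmb6) to 0.37 (Psmb5), while Psmb1 (0.15, adjusted p = 0.119) and Psmb7 (0.16, adjusted p = 0.108) did not pass. Psmb5, the chymotrypsin-like subunit whose promoter is printed above, had 63.7, 67.1, 60.8, 75.6 and 66.7 FPKM in control, 83.0, 77.4, 90.3, 92.5 and 88.4 in the model and 66.4, 74.4, 76.1, 85.9 and 72.6 in BBBPH livers. Its lowest model library lay just above its highest control library, and BBBPH libraries spread across both. Psmb5 rose 1.29-fold (log2 0.37 ± 0.08, adjusted p = 0.00208). Psmb2 had 65.2, 63.9, 66.3, 59.8 and 58.5 FPKM in control, 74.0, 73.9, 76.6, 76.2 and 74.7 in the model and 63.6, 62.1, 56.3, 66.3 and 70.1 in BBBPH livers. The model libraries were close together and above every other library, a rise of 1.20-fold (adjusted p = 0.00481).

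Caps and the inhibitor mostly did not pass. Psme3, which forms a nuclear cap that opens the core without ubiquitin, was the exception among 6, with 16.5, 14.9, 16.3, 16.1 and 17.2 FPKM in control, 19.6, 18.1, 17.3, 19.6 and 18 in the model and 17.9, 15.4, 18, 18 and 16.7 in BBBPH livers. Model libraries were just above the control range, and BBBPH libraries lay across it. The rise was 1.13-fold (adjusted p = 0.0291), and its adjusted p was 0.0737 without control 1_5, 0.0535 without control 2_2, 0.0671 without model 1_1 and 0.0714 without model 2_3. No cap or inhibitor gene was called lower. None was lower at an unadjusted p under 0.05 in limma or at an adjusted p under 0.05 in voom. With libraries scaled by the median ratio over genes, 1 of the 6, Psme4, was called lower (1809 of all 9575 genes). Psme1 and Psme2, which form the interferon-inducible cap, had log2 fold changes of 0.04 and 0.10, and Psme4, whose large single-chain cap is tied to histone degradation, one of -0.10 (adjusted p = 0.748, 0.514 and 0.419). Psme3ip1, whose product binds Psme3, had 7.40, 9.29, 10.6, 9.17 and 7.97 FPKM in control, 12.5, 10.7, 10.1, 11.5 and 12.2 in the model and 9.58, 10.5, 10.4, 9.76 and 9.23 in BBBPH livers. It rose 1.26-fold (adjusted p = 0.00654), though control 2_1 reached into the model range.

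The assembly chaperones did not move as 1 group. Psmd10, known as gankyrin, which escorts an ATPase into the base, had 5.29, 7.49, 6.96, 6.95 and 6.09 FPKM in control, 8.13, 7.97, 8.68, 9.22 and 8.67 in the model and 6.84, 6.94, 6.96, 8.64 and 7.37 in BBBPH livers, and rose 1.27-fold (adjusted p = 0.00464) with no overlap between model and control. Psmd5, another base chaperone, had 15.3, 15.8, 16, 15.7 and 14.4 FPKM in control, 19.8, 15.8, 20.5, 21.4 and 18.7 in the model and 15.8, 17.2, 15.1, 17.0 and 14.7 in BBBPH livers. It rose 1.22-fold (adjusted p = 0.0066), with model 1_4 inside the control range. Psmd9, the third base chaperone, had 17.7, 16, 16.5, 17.5 and 14.5 FPKM in control, 14.1, 12.3, 13.9, 14.3 and 15.6 in the model and 22.6, 17.7, 21.2, 20.7 and 20.0 in BBBPH livers. Model libraries were low, with model 3_4 inside the control range, and BBBPH libraries were the highest of the 3 groups. Against control the level of Psmd9 in the model was 0.86-fold (log2 -0.22 ± 0.08, adjusted p = 0.0354). That call lay near the threshold and was lost on leaving out any of 7 libraries: the adjusted p was 0.0827 without control 1_1, 0.0585 without control 2_1, 0.0818 without control 2_2, 0.0549 without model 1_1, 0.0876 without model 1_4, 0.0624 without model 2_1 and 0.0545 without model 2_3. Psmg1 to Psmg4, the chaperones of the alpha ring, had log2 fold changes of 0.18, 0.10, 0.20 and 0.26, none of which passed.

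**Figure D3:**
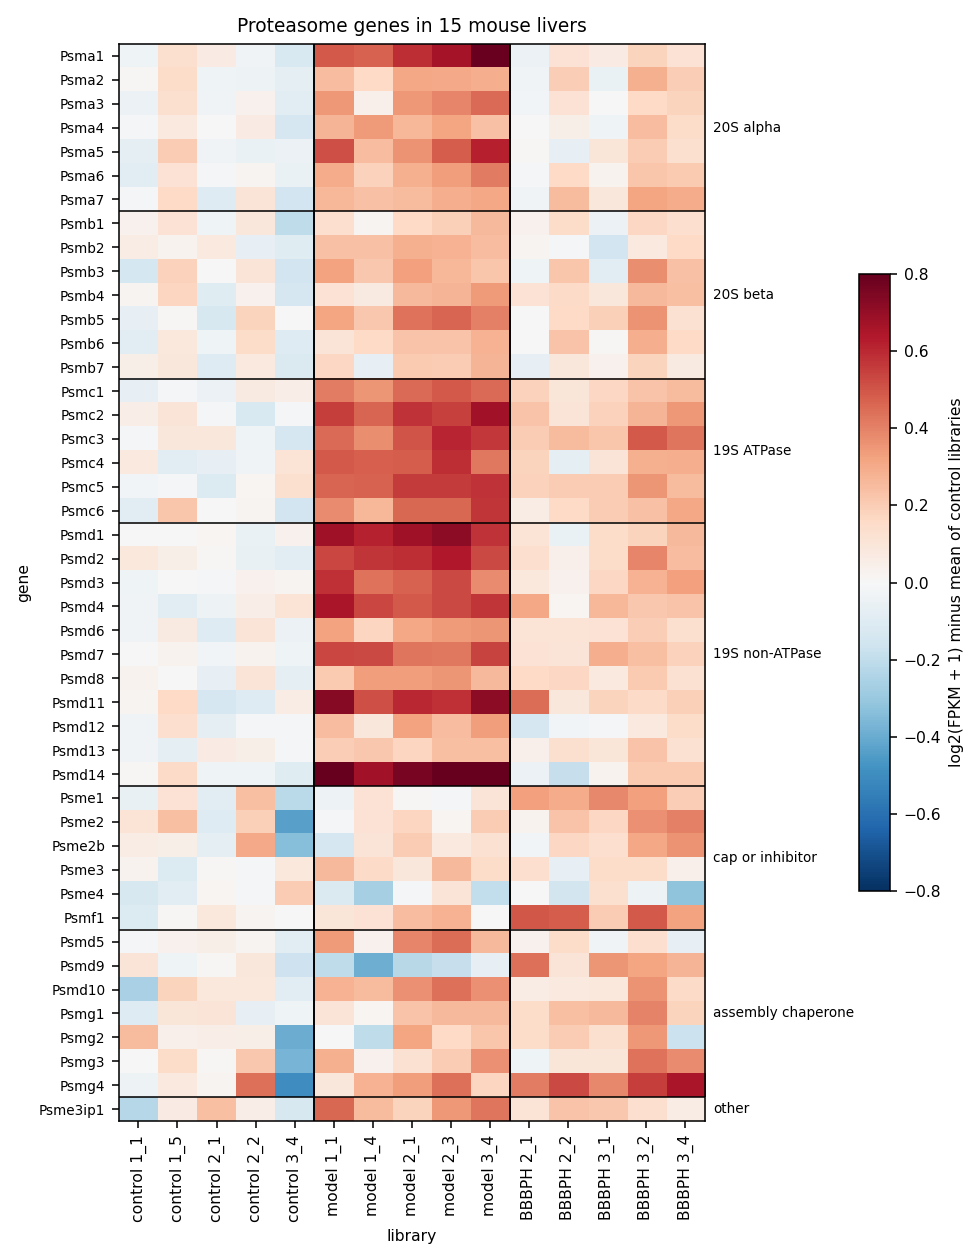
Level of each tested member in each of the 15 libraries, as log2(FPKM + 1) minus the mean of the 5 control libraries, with members in rows by role and values beyond the ends of the colour scale drawn in its end colours. The 19S rows are high across all 5 model libraries, and Psmd9 is low there and high in BBBPH.

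Scaling of the libraries bore on this count. FPKM left the median gene 0.12 higher in the model on the log2 scale, and scaling by the median ratio over genes brought that to -0.01. The split of all calls then turned from 2865 higher and 827 lower to 1483 higher and 1809 lower, and quantile scaling gave 1534 and 1734. Under median-ratio scaling 17 members were called higher (15.5% of all genes) and 2 lower, Psmd9 and Psme4, with a member median of 0.14. The 17 were all among the 33, and held all 6 ATPases, 7 of 11 non-ATPase subunits, Psma1, Psma5, Psmb5 and Psmd10. Quantile scaling called 25 members higher (16% of all genes) and 1 lower. Psmb2, Psme3, Psmd5 and Psme3ip1 were among those no longer called under the first scaling (log2 0.10, 0.03, 0.14 and 0.19), and all but Psmb2 of these under the second (log2 0.06, 0.17 and 0.21). Leaving out model 1_4 and BBBPH 2_2 gave 34 members higher and 0 lower, and leaving out control 2_1 as well gave 31 and 0. Among all 9575 genes, those settings called 2661 higher and 703 lower, and 2533 and 678.

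The second comparison, BBBPH against model, asks how the bile powder changed livers on the same diet. It shares the model libraries with the first, so each comparison's own values are given side by side. Lower calls lay mostly in the 19S particle: 20 of 45 members were called lower in BBBPH livers (12.2% of all genes) and 3 higher (14.2%), with 22 not called. All BBBPH libraries lay below all model libraries for 14 members (7.9% of all genes) and above them for 2 (9.11%). The member median was -0.18 in log2 fold change, beside 0.02 over all genes tested.

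By role, 14 of 17 member subunits of the 19S particle fell (median -0.30), namely 5 of 6 ATPases and 9 of 11 non-ATPase subunits. In the core, 4 of 7 alpha subunits fell (median -0.20) but 1 of 7 beta subunits, Psmb2 (median -0.09). The calls of Psma3, Psma4, Psmc6 and Psmd6 lay near the threshold (adjusted p = 0.0398, 0.0312, 0.0361 and 0.038 in limma). Each was lost without BBBPH 2_1, 2_2 or 3_1, without model 1_1 or 2_3, and without the 20 most abundant genes. The summed 19S level was 794 ± 39.3 FPKM (744 to 839) in BBBPH livers, below every model liver, and the 20S sum was 1165 ± 83.8 FPKM (1075 to 1271), which overlapped the model range. The ratio of the sums was 0.723, 0.629, 0.719, 0.660 and 0.685 in BBBPH livers, from inside the control range to inside the model range.

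Psmd14 fell furthest, to 0.61-fold of its model level (log2 -0.72 ± 0.08, adjusted p = 1.71e-05), against the rise of 0.77 in the model. Psmd1 fell to 0.69-fold (log2 -0.53 ± 0.06, adjusted p = 2.72e-05), Psma1 to 0.70-fold (-0.52 ± 0.07, adjusted p = 0.000154) and Psmd11 to 0.75-fold (-0.42 ± 0.08, adjusted p = 0.00114). No BBBPH library of these 4 genes reached its model range. Psma5 fell to 0.77-fold (adjusted p = 0.00316), Psmd2 to 0.77-fold (0.000661), Psmd4 to 0.78-fold (0.00113), Psmc2 to 0.79-fold (0.00121), Psmd7 to 0.81-fold (0.000873), Psmc5 to 0.82-fold (0.00199) and Psmb2 to 0.85-fold (0.0109). Psmb5 stood at 0.87-fold of its model level and was not called (log2 -0.20 ± 0.08, adjusted p = 0.0698), but its adjusted p was 0.0302 without BBBPH 3_2, 0.0395 without model 1_4 and 0.0232 under median-ratio scaling. Psmd5 fell to 0.84-fold (adjusted p = 0.0235), a call lost without BBBPH 3_1 (0.0537), BBBPH 3_4 (0.0562), model 1_1 (0.0522), model 2_1 (0.0571), model 2_3 (0.0616) or the 20 most abundant genes (0.0665). Psmd10 was at 0.87-fold and was not called (adjusted p = 0.0966, but 0.0398 without BBBPH 3_2, 0.0394 under median-ratio scaling and 0.0447 under quantile scaling).

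The 3 members higher in BBBPH than in model livers were a chaperone, a cap subunit and the inhibitor. Psmd9 rose 1.43-fold (log2 0.51 ± 0.08, adjusted p = 0.000222), with every BBBPH library above every model library. Psme1 rose 1.21-fold from 83.1 ± 4.17 to 101 ± 4.86 FPKM (adjusted p = 0.019), again without overlap. Psmf1, the PI31 protein first described as an inhibitor of the core, had 5.95, 6.55, 6.96, 6.62 and 6.50 FPKM in control, 7.02, 7.13, 7.92, 8.12 and 6.54 in the model and 9.60, 9.49, 7.64, 9.54 and 8.40 in BBBPH livers. BBBPH 3_1 was inside the model range and the other 4 were above it. Its rise over the model was 1.19-fold (adjusted p = 0.0192), which became 0.0521 without BBBPH 2_2.

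**Figure D4:**
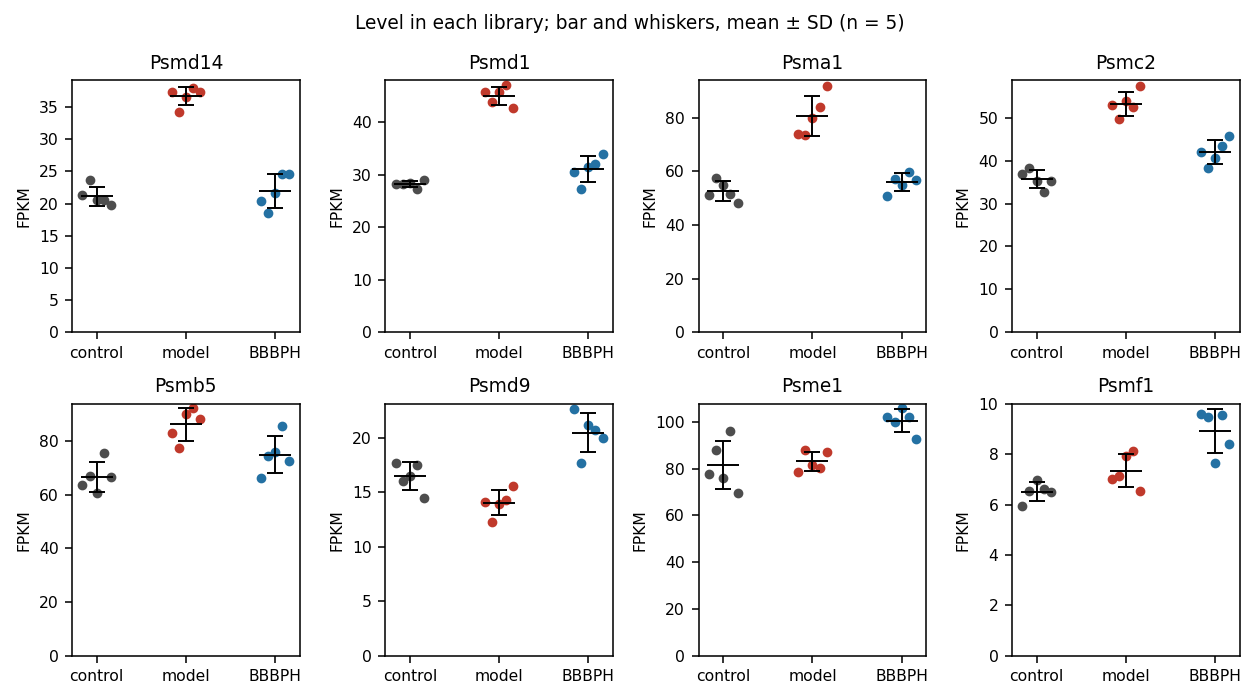
FPKM of selected members in every library, with the mean and SD of each group of 5. Psmd14, Psmd1 and Psma1 are high in the model libraries alone, and Psmd9 has its highest values in BBBPH livers.

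BBBPH livers did not all stand at the same height. Taking the 31 core and 19S subunits in each BBBPH library, 13, 14, 13, 29 and 27 of them exceeded every control library, with median log2 differences from the control mean of 0.04, 0.11, 0.09, 0.23 and 0.20. BBBPH 3_2 and 3_4 were therefore higher than the other 3, and 3_2 was the highest of its group for 19 of the 31 genes. The model libraries had 29, 26, 31, 31 and 31 such genes and medians of 0.34, 0.27, 0.36, 0.42 and 0.41, the lowest being model 1_4. The same counts over all genes were not made by library, so these have no background. Over all genes tested, the median log2 fold change against control was 0.13 in BBBPH and 0.12 in model livers. Whether the differences between libraries are particular to these genes was not tested. Without model 1_4 and BBBPH 2_2, 20 members were called lower and 2 higher than in the model, and with control 2_1 left out as well, 18 and 2. Among all 9575 genes, those settings called 944 lower and 973 higher, and 906 and 916.

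The last comparison, BBBPH against control, measures how far livers under the diet and the powder stood from control livers. Of the 45 members, 12 were called higher (24.4% of all genes) and 0 lower (3.7%), and 33 did not pass. All BBBPH libraries were above all control libraries for 9 members (15.3% of all genes) and below them for 0 (2.22%). The median log2 fold change was 0.15, close to the 0.13 of all genes tested, and the called share of 26.7% was near the background. No gene of the 20S core was among the 12, while 4 ATPases (Psmc1, Psmc2, Psmc3 and Psmc5), 3 non-ATPase subunits (Psmd2, Psmd4 and Psmd7), Psme1, Psmf1 and the chaperones Psmd9, Psmg1 and Psmg4 were. The count of 0 lower was also 0 in limma at an unadjusted p under 0.05. It was 0 as well in voom on recovered fragment counts, called at an adjusted p under 0.05. At the unadjusted level in limma, 22 members were higher, among them 2 of the 14 tested genes of the 20S core. Voom called 0 of those 14 at an adjusted p under 0.05. The share of all genes higher at the unadjusted level was not counted, so the 22 and the 2 have no background.

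Psmf1 was 1.32-fold higher in BBBPH than in control livers (log2 0.40 ± 0.07, adjusted p = 0.00159), and Psmg4 1.42-fold (0.51 ± 0.13, adjusted p = 0.0101) from 6.93 ± 1.80 to 10.1 ± 0.849 FPKM, with 1 control library (2_2) inside the BBBPH range. Psmd9 was 1.23-fold higher (adjusted p = 0.011), Psme1 1.24-fold (0.0109), Psmc5 1.18-fold (0.00789) and Psmc2 1.17-fold (0.0152). Psmd14, the gene with the largest rise in the model, was at 1.03-fold of control (adjusted p = 0.684), Psmd1 at 1.09-fold (0.112) and Psma1 at 1.06-fold (0.395). Psmd1 had an adjusted p of 0.0357 without BBBPH 2_2. Psmd7 was 1.14-fold higher (adjusted p = 0.0197, and 0.0508 without BBBPH 3_2). Psmd2 (1.14-fold, adjusted p = 0.0415) and Psmd4 (1.15-fold, adjusted p = 0.0279) lost their calls when any of several libraries was left out: Psmd2 without control 1_5 (0.0523), 2_1 (0.062), 2_2 (0.0879) or 3_4 (0.0874), BBBPH 3_1 (0.0534), 3_2 (0.112) or 3_4 (0.0837) or model 2_1 (0.0525), and Psmd4 without control 1_1 (0.0559), 1_5 (0.0634) or 2_1 (0.0544) or BBBPH 2_1 (0.0572), 3_1 (0.0589), 3_2 (0.0561) or 3_4 (0.0532). This comparison moved with the scaling: median-ratio scaling left 1 of the 12 calls, Psmf1 (6.97% of all genes called higher), and a member median of -0.01, and quantile scaling left 4 (7.42%).

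The inducible catalytic subunits replace their constitutive counterparts in the immunoproteasome, the form that interferon induces and immune cells carry. Psmb8, the counterpart of Psmb5, had 23.6, 27.7, 23.0, 26.7 and 16.5 FPKM in control, 19.4, 28.5, 22.1, 22.8 and 25.8 in the model and 29.5, 30.3, 34.9, 30.7 and 35.2 in BBBPH livers. Control and model libraries were mixed and every BBBPH library was above both. Psmb8 rose in BBBPH livers by 0.43 ± 0.12 in log2 against the model (adjusted p = 0.0193, and 0.0541 without model 1_1) and by 0.45 ± 0.12 against control (adjusted p = 0.0156). The call against control was lost under median-ratio scaling (0.28, adjusted p = 0.118) and quantile scaling (0.35, adjusted p = 0.0595). Psmb10, the counterpart of Psmb7, had 18.7, 22.2, 15.2, 21.9 and 11.4 FPKM in control, 13.2, 18.7, 15.5, 15.5 and 15.5 in the model and 19.6, 24.9, 18.8, 27.6 and 29.4 in BBBPH livers. It rose by 0.57 ± 0.17 against the model (adjusted p = 0.0185), with the lowest BBBPH library just above the highest model library, and was not called against control (0.42, adjusted p = 0.0665), although it was called there without control 1_5 (0.0424), control 2_2 (0.0467), BBBPH 2_1 (0.0463) or BBBPH 3_1 (0.0436). Psmb9, the counterpart of Psmb6, had 6.89, 9.67, 10.4, 9.94 and 5.17 FPKM in control, 8.41, 16.3, 12.6, 14.8 and 12.0 in the model and 8.06, 11.9, 10.9, 14.3 and 21.0 in BBBPH livers. Its groups overlapped throughout, and it was not called in the model (0.56 ± 0.23, adjusted p = 0.0611), a call gained without control 2_1 (0.0499), BBBPH 2_1 (0.0434), BBBPH 3_4 (0.0356) or model 1_1 (0.0277). Against control it stood at 0.57 in BBBPH livers (adjusted p = 0.0713, and 0.0255 without BBBPH 2_1).

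Immune cell markers stood beside these values as follows, and their part was not tested. Macrophage markers summed to 270.0 to 358 FPKM in control, 273 to 445 in the model and 316 to 537 in BBBPH livers. T and NK cell markers summed to 3.31 to 5.62, 3.96 to 9.15 and 4.38 to 9.10 FPKM, B and plasma cell markers to 2.31 to 6.03, 2.20 to 4.74 and 2.85 to 9.20 FPKM, and dendritic cell markers to 0.858 to 1.73, 2.11 to 3.16 and 1.03 to 1.59 FPKM. Neutrophil markers summed to 2.64 to 36.1, 12.6 to 81.3 and 6.64 to 126 FPKM. Of the genes tested, 3 of 11 macrophage (27.3%) and 2 of 4 neutrophil markers (50%) rose in the model, against 29.9% of all genes tested. In BBBPH against model livers, 2 macrophage markers rose (18.2%, against 14.2%) and 2 fell (18.2%, against 12.2%). The T and NK list and the B and plasma list had 1 tested gene each, which was not called. No marker of these lists that the table holds was at 0 in every library.

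Ratios of each constitutive subunit to its inducible counterpart were compared by exact 2-sided permutation tests of the log2 ratio over 252 arrangements, with a smallest possible p of 0.00794. The ratio of Psmb5 to Psmb8 was 2.93 ± 0.64 (SD, n = 5) in control, 3.71 ± 0.643 in the model and 2.35 ± 0.29 in BBBPH livers. BBBPH and model ranges met between 2.72 and 2.80, and their difference of -0.65 in log2 gave an exact p of 0.0159, or 0.0714 after adjustment over the 9 tests. The ratio of Psmb7 to Psmb10 was 6.99 ± 1.60, 8.65 ± 1.51 and 5.32 ± 0.864, with a BBBPH to model difference of -0.70, the same exact p of 0.0159 and the same adjusted 0.0714. Without model 1_4, both adjusted values became 0.0357 by the same exact test over fewer arrangements (differences of -0.76 and -0.82). The ratio of Psmb6 to Psmb9 was 11.7 ± 3.14, 8.75 ± 2.12 and 8.45 ± 2.38, and none of its 3 differences nor of the other 4 tests passed, with adjusted exact p from 0.122 to 0.794. None of the 9 tests therefore passed with all libraries in. After adjustment over the 9, a lone exact test at the smallest possible p could not have passed.

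**Figure D5:**
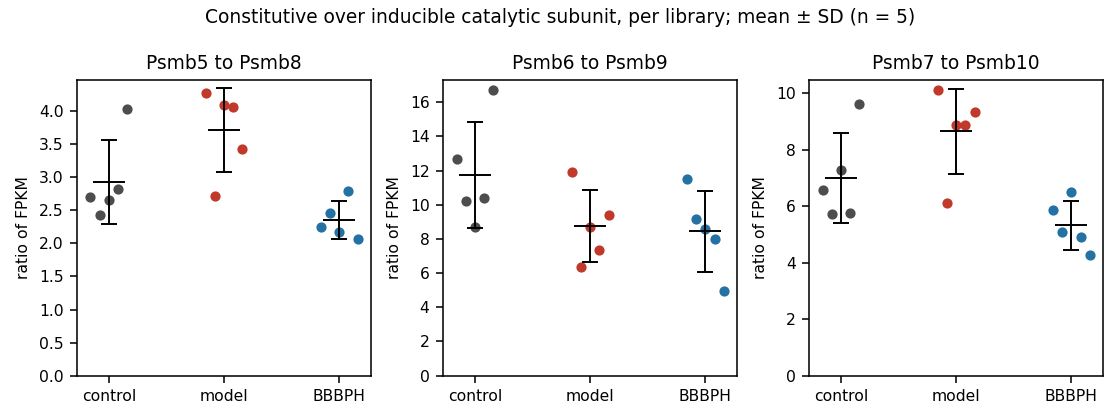
Ratio of the FPKM of each constitutive catalytic subunit to its inducible counterpart, by library, with the mean and SD of each group of 5. For Psmb5 to Psmb8 and Psmb7 to Psmb10, model 1_4 is the lone low model library (2.72 and 6.11).

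Other genes of the pathway were taken from lists by function. Of 12 tested genes for proteins that assemble or bind the proteasome, 5 rose in the model (41.7%, against 29.9% of all genes tested) and 0 fell (8.64% of all genes), and 0 rose (14.2%) and 5 fell (41.7%, against 12.2%) in BBBPH against model livers. For this list and the next pair, directions with a count of 0 also had 0 genes in limma at an unadjusted p under 0.05. They had 0 in voom at an adjusted p under 0.05. Pomp, the maturation factor of the core, had 111, 113, 100.1, 103 and 84.9 FPKM in control, 124, 131, 134, 141 and 142 in the model and 95.7, 106, 103, 115 and 126 in BBBPH livers. Its model libraries were above all control libraries, and BBBPH 3_4 alone reached them; the log2 fold changes were 0.40 ± 0.09 (adjusted p = 0.0027) and -0.30 ± 0.09 (adjusted p = 0.019, and 0.052 without model 1_4 and BBBPH 2_2 together). Zfand2a, a stress-inducible protein that binds the proteasome, changed by 0.69 and -0.98 (adjusted p = 0.000759 and 7.11e-05), and Dnajb2, a cochaperone that hands ubiquitinated clients to the proteasome, by 0.56 and -0.63 (adjusted p = 0.000233 and 0.000135). The other members of that list called in both were the ubiquitin receptor Adrm1 (0.41 and -0.39) and the deubiquitinase Usp14 (0.33 and -0.28).

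Ubiquitin receptors and shuttles rose in 5 of 8 genes in the model (29.9% of all genes tested) and fell in 5 of 8 under BBBPH (12.2% of all genes). Sqstm1, the autophagy receptor p62, had 57.5, 59.9, 51.8, 53.3 and 73.4 FPKM in control, 125, 119, 108, 105 and 108 in the model and 57.7, 52.2, 69.6, 60.4 and 61.2 in BBBPH livers. The model libraries were far above both other groups, which overlapped, with log2 fold changes of 0.93 ± 0.10 and -0.90 ± 0.10 (adjusted p = 8.97e-06 and 1.72e-05). Ubqln2, a shuttle that carries ubiquitinated proteins to the 19S particle, changed by 0.47 and -0.28 (adjusted p = 0.000245 and 0.0112).

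In the list around the transcription factor Nrf1, 5 of 10 tested genes rose in the model (29.9% of all genes tested) and 0 fell (8.64%), and 5 fell under BBBPH (12.2%) and 0 rose (14.2%). Nfe2l1 had 31.5, 28.4, 26.1, 25.3 and 34.0 FPKM in control, 40.2, 40.3, 36.5, 38.8 and 40.3 in the model and 33.2, 29.2, 37.5, 28.4 and 26.1 in BBBPH livers. The model libraries lay above all control libraries, and BBBPH 3_1 alone reached them. Its log2 fold changes were 0.43 ± 0.10 (adjusted p = 0.00303, and 0.0655 under median-ratio scaling) and -0.35 ± 0.10 (adjusted p = 0.0157, and 0.0643 without model 1_4 and BBBPH 2_2 together). Vcp, the ATPase that extracts Nrf1 from the endoplasmic reticulum membrane, changed by 0.58 ± 0.06 and -0.54 ± 0.06 (adjusted p = 6.91e-06 and 1.82e-05), and Mafk, a small Maf partner of the factor, by 0.49 and -0.42 (adjusted p = 0.00107 and 0.00419). Nfe2l2, which encodes the related factor Nrf2, rose by 0.31 ± 0.10 (adjusted p = 0.0204), a call lost without control 1_1 (0.0525) or model 2_1 (0.0535), under median-ratio scaling (0.16, adjusted p = 0.181), under quantile scaling (0.18, 0.13) and without the 20 most abundant genes (0.25, 0.0639), and stood at -0.13 under BBBPH (adjusted p = 0.334). These are transcript levels, and Nrf1 is controlled largely after translation, so the activity of either factor was not measured.

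Ubiquitin genes themselves went both ways, with 3 of 6 genes of ubiquitin and its activating enzymes higher (29.9% of all genes tested) and 2 lower (8.64%) in the model, and 2 higher (14.2%) and 2 lower (12.2%) under BBBPH. Uba1, the main activating enzyme, changed by 0.24 (adjusted p = 0.00705), a call lost under median-ratio scaling (0.08, adjusted p = 0.354), quantile scaling (0.11, 0.206) and without the 20 most abundant genes (0.18, 0.0709), and stood at -0.09 under BBBPH (adjusted p = 0.286). Of 18 conjugating enzymes, 5 rose (27.8%, against 29.9% of all genes tested) and 2 fell (11.1%, against 8.64%) in the model. Under BBBPH 0 rose and 5 fell (27.8%, against 12.2%). There 1 was higher at an unadjusted p under 0.05 in limma and 0 at an adjusted p under 0.05 in voom. Ube2k, which builds chains of the kind the proteasome reads, changed by 0.35 and -0.30 (adjusted p = 0.00036 and 0.00147), and Ube2l3, which serves ligases of the HECT and parkin kind, by 0.35 and -0.30 (adjusted p = 0.00103 and 0.00444).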

How the data were processed

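Total RNA of 15 mouse livers was sequenced, and the deposited values are FPKM per gene and library, with no pooling, as the authors made them. Per the submitters' processing notes, fastp, HISAT2, HTSeq, DESeq2 and the build mm10 were used, and versions, annotation and strand are not given in the sources used here. The series table and the 15 single files held equal values. All further values were computed from these FPKM.

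Testing covered the 9575 genes that averaged 1 FPKM or more over the 15 libraries, with limma 3.58.1 (R 4.3.3) on log2(FPKM + 1), with 3 group means and eBayes with a trend. Benjamini-Hochberg adjustment of the 2-sided p-values ran over all tested genes of a comparison, and adjusted p under 0.05 made a call. Fold changes are on the log2(FPKM + 1) scale, which understates changes of low genes. Whole fragment counts were recovered from FPKM for 17522 genes (100.0% of values within 0.02 of a whole number) and used for an alternative fit by voom. Depth was set to the value at which the most genes, 181, took their exon length in GENCODE M21, against 4 at the next value. The fit was tested on simulated data. Ratios of catalytic pairs were compared by exact permutation tests over all arrangements of the libraries, with Benjamini-Hochberg adjustment in scipy 1.17.1.

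Values in every library are given for the 2 members of each role with the smallest adjusted p in model against control, the 6 with the smallest in BBBPH against model, any member lower in the model, and Psmb5, Psmd4 and Psmd14. Outside the members, named genes are chosen pathway genes and the 2 with the smallest adjusted p of each pathway list, some with fold changes alone, and 1 of them is not reported here. Members, lists and rules were chosen with earlier results of these data known. Same-numbered libraries of different groups did not deviate together (residual correlations of 8 pairs from -0.33 to 0.02), so numbers were not used as pairs. Alternatives covered the pseudocount, filter, scaling, variance model, library weights, pairing and libraries left out, of which voom and the alternatives for the ratios were chosen after seeing the data. Promoter windows came from RefSeq and gene positions from GENCODE M21, which held 46 of the 47 members.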

Additional observations from a re-analysis of the deposited data

Results flagged for a closer look

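Among 96 groups of 5 libraries (32 named genes in 3 groups), 2 held a value whose gap to the nearest other library exceeded 0.71 of the group's range, a limit that chance passes in about 1 in 20 groups. Psma5 in control 1_5 stood at 31.8 FPKM, against 26.1 to 26.9 in the other control libraries. Vcp in model 2_3 stood at 116 FPKM, against 110.1 to 112 in the other model libraries, and all 5 remained above every control library.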

How the results depend on the processing

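Counts of called members kept within 1.5 times of the reported ones except as follows. For model against control (33 higher, 1 lower), median-ratio scaling gave 17 higher and 2 lower; the lower count was 0 with model 1_4 and BBBPH 2_2 left out, 0 with control 2_1 left out as well, and 0 to 1 with single libraries left out. For BBBPH against control (12 higher), median-ratio scaling gave 1 and quantile scaling 4. Leaving out single libraries gave 29 to 35 higher for model against control, 15 to 23 lower for BBBPH against model and 8 to 16 higher for BBBPH against control. Among all 9575 genes, the same counts ran from 2337 to 2926, from 926 to 1218 and from 1602 to 2491. Voom called the same 33, 1, 3, 20 and 12 members. The cause of these shifts was not tested.

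The replicate block, with the full number of the label as the block, had partners for 10 of the 15 libraries. It gave 24 higher and 0 lower for model against control (1032 and 283 of all 9575 genes). For BBBPH against model it gave 0 higher and 3 lower (101 and 204 of all genes). For BBBPH against control it gave 0 higher (135 of all genes). A replicate block by the first number gave 32 higher and 0 lower, 3 and 16, and 8. Among all genes that block gave 2773 and 813, 909 and 886, and 1553. Since 0 of 10 libraries correlated best with their own number, the labels' numbers are not taken as pairs.

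Some fold changes that were not called changed sign under some settings. For BBBPH against control, the genes listed next had reported values from 0.02 (Psmb2) to 0.17 (Psmb5), beside 0.13 for the median of all genes tested. For BBBPH against control, median-ratio scaling gave -0.09 for Psma1, -0.10 for Psma5, -0.01 for Psmb5, Psmd10 and Psme3ip1, -0.15 for Psmb2, -0.04 for Psmd1, -0.12 for Psmd14 and Psmd5 and -0.09 for Psme3. Quantile scaling gave -0.01 for Psma1, -0.04 for Psma5 and Psme3, -0.08 for Psmb2 and Psmd5 and -0.06 for Psmd14. Psmb2 was -0.01 without the 20 most abundant genes and -0.02 to 0.06 with single libraries left out. Psmb8 in model against control was -0.13 under median-ratio scaling, -0.09 under quantile scaling, -0.04 without the 20 most abundant genes, -0.10 with library weights, -0.04 and -0.05 with 2 and 3 libraries left out, and -0.09 to 0.09 with single libraries left out. Psmb9 in BBBPH against model was -0.01 as TPM and under median-ratio scaling, -0.02 with the block by first number and -0.16 to 0.16 with single libraries left out. The log2 ratio of Psmb6 to Psmb9 there was -0.20 to 0.11 with single libraries left out. Of the other alternatives for single genes and for the ratios of catalytic pairs, 2564 kept direction and side of the threshold, 122 lost a call and 23 gained one.

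FPKM are relative to each library's total, so a shift of all genes cannot be seen, and the precision is limited by 5 libraries a group and by depth, which were not compared.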
